A study of Mus musculus with 2 samples.

Results

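The 10 imprinted growth genes described here are H19, Igf2, Mest, Cdkn1c, Peg3, Plagl1, Dlk1, Grb10, Ndn and Igf2r, out of 28312 genes with a symbol on the array. They were read by 18 probes of 60 bases, printed as 36 spots per array, and all probes that the array names for these genes were taken. The genes were chosen with their signals, serum ratios and differences between the arrays in view, so every value below is a description and none was tested. RNA came from a line of immortalized mouse embryonic fibroblasts (MEF) on a mixed background, C57BL/6 x B6:129 Ola. All cells carried Rosa26ERT2 Cre, a recombinase that tamoxifen switches on, and floxed THOC5 alleles. THOC5 is a subunit of the THO complex, which couples transcription to mRNA processing and export. Control cells had no tamoxifen and are labelled wildtype, although they carry the same floxed alleles and Cre. THOC5-depleted cells are labelled THOC5 knockdown and, per the labels, had tamoxifen for 2 days. Cells called unstimulated here had been starved of serum, per the methods. For each, 1 two-color array compared unstimulated cells in Cy3 with cells given serum (FCS) for 1 h in Cy5. Each condition thus had 1 array, without a dye swap. A serum effect cannot be told apart from a dye effect, and THOC5 loss cannot be told apart from tamoxifen, culture or slide position.

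An imprinted gene is expressed mainly from the copy of one parent, as set by DNA methylation laid down in the germ line. Many such genes act on fetal growth: paternally expressed ones often promote it and maternally expressed ones often restrain it. IGF2, a growth factor made from the paternal copy, signals through the IGF1 and insulin receptors, and IGF2R, made from the maternal copy, carries IGF2 to the lysosome. Cdkn1c encodes an inhibitor of cyclin-dependent kinases, and Grb10 an adaptor that dampens insulin and IGF1 receptor signaling. Plagl1 encodes a zinc finger transcription factor that acts on other imprinted genes. The arrays read total transcript and do not distinguish the parental copies.

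H19 and Mest were the members that differed most between the arrays, and both were lower in THOC5-depleted cells with and without serum. The other 6 members that were read above background differed less than 2-fold, and Igf2 and Peg3 were not well above background in any of the 4 channels. The probes that carry the H19 result are shown because they gave different signals. Both lie on the minus strand of chromosome 7 of mm9, the first at chr7:149761492-149761551 and the second, 925 bases upstream, at chr7:149762417-149762476.
H19 probe A_55_P1961127: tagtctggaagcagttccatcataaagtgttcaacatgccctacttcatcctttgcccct
H19 probe A_55_P1961125: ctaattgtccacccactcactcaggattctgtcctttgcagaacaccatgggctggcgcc

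H19 and Mest transcripts also hold the hairpins of a miRNA each, so their mature sequences are given with the seed (bases 2 to 8) in capitals. The sequences are from RefSeq (GRCm38.p6), where both hairpins lie inside the host gene. No array probe was named for either miRNA, and their levels were not analysed here.
mmu-miR-675-5p, in H19: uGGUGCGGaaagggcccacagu
mmu-miR-335-5p, in Mest: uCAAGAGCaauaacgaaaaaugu

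H19 is a non-coding RNA made from the maternal copy and shares its imprinting control region and enhancers with Igf2. Its brighter probe was printed as 1 spot per array, so it has no spread between spots. The processed signal of this probe, an intensity on a linear scale, was 490.2 in unstimulated and 289.4 in serum-stimulated control cells. In THOC5-depleted cells the signals were 81.15 unstimulated and 46.02 with serum. All 4 were called well above background by the scanner software. The order was thus unstimulated control, stimulated control, unstimulated THOC5-depleted and stimulated THOC5-depleted cells, and both signals of the control array exceeded both of the other. After quantile normalization between the arrays, H19 was 5.27-fold lower in unstimulated THOC5-depleted cells (log2 -2.40) and 5.48-fold lower in stimulated ones (log2 -2.46). Its serum log2 ratio, Cy5 over Cy3 within an array, was -0.76 in control and -0.82 in THOC5-depleted cells.

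The second H19 probe was dim, with signals of 13.97 and 11.56 in control cells and 12.87 and 16.38 in THOC5-depleted cells, unstimulated first. It was well above background in unstimulated control and in stimulated THOC5-depleted cells only. With serum it was at least 1.304-fold higher in THOC5-depleted than in control cells, and within the THOC5-depleted array at least 1.27-fold higher with serum than without. It thus differs from the brighter probe in direction there, and with the mean of both probes the log2 difference became -1.18 unstimulated and -0.90 stimulated. Each of these means includes a signal of the second probe that was not above background, so they are not exact.

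Mest encodes a protein of the alpha/beta hydrolase family and is expressed from the paternal copy. Its brightest probe (chr6:30698279-30698338, plus strand, mm9) was printed as 10 spots. The mean signal was 1945 in unstimulated control cells (spots from 1798 to 2029) and 1023 with serum (946.3 to 1111). In THOC5-depleted cells it was 263.3 unstimulated (241.4 to 286.7) and 189.1 with serum (179.3 to 206.2). No spot range of one channel overlapped that of another, although the spots of an array share 1 RNA sample and are not replicates. Between the arrays Mest was 6.18-fold lower in unstimulated THOC5-depleted cells (log2 -2.63) and 4.52-fold lower in stimulated ones (log2 -2.18). A second probe, 894 bases upstream, had signals of 467 and 288.6 in control cells and 72.7 and 61.93 in THOC5-depleted cells. On that probe the log2 differences between the arrays were -2.49 unstimulated and -2.03 stimulated, close to those of the first. The third probe, 6119 bases upstream, was well above background on the control array only, with signals of 51.37 and 23.96 there. It gave a level at least 4.26-fold lower in unstimulated and at least 1.80-fold lower in stimulated THOC5-depleted cells, set against the lowest signal called above background. All 3 Mest probes were thus lower on the THOC5-depleted array.

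Of the 8 members read above background, 2 were lower by 2-fold or more in unstimulated THOC5-depleted cells, against 3.25% of 19090 genes, and 0 were higher, against 3.08%. In stimulated cells the same genes, H19 and Mest, were lower, against 3.11% of 18707 genes, and 0 members were higher, against 3.57%. Since the members were chosen on these differences, nothing is read from these counts. The percentages are of genes well above background in at least 1 of the 2 channels compared. Without scaling between the arrays the median of all genes was -0.26 unstimulated and -0.25 stimulated, and the percentages were 2.35% higher and 4.72% lower unstimulated, and 2.68% higher and 4.59% lower stimulated. The median log2 difference of the members was -0.22 unstimulated and -0.32 stimulated, beside -0.01 and 0.00 over all genes. Without scaling, Cdkn1c also passed 2-fold unstimulated, so that 3 members were lower. Among all genes, Mest ranked 109 from the lowest unstimulated and 172 stimulated, and H19 ranked 145 and 139.

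**Figure D1:**
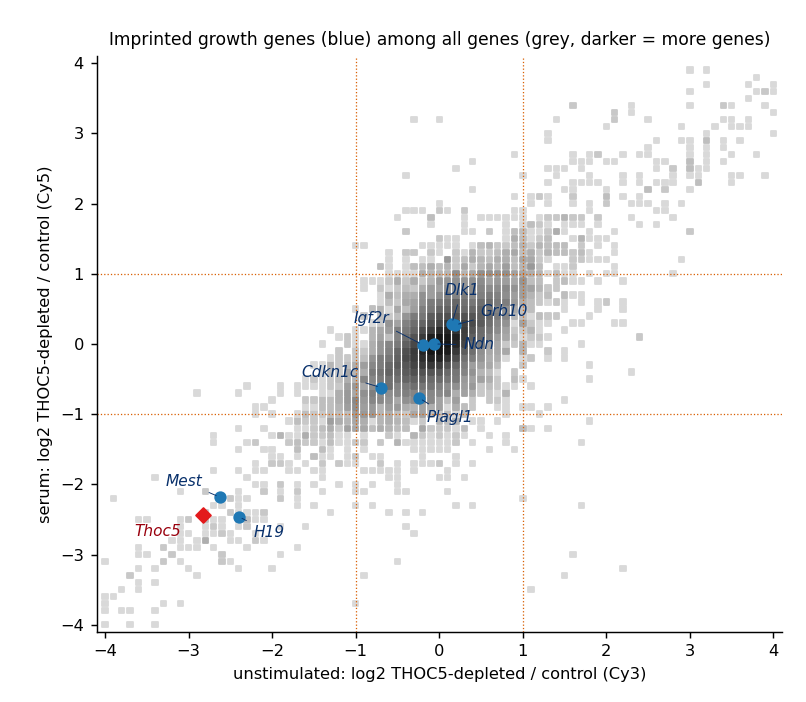
Log2 THOC5-depleted over control signal in unstimulated cells (horizontal, Cy3) and after serum (vertical, Cy5) for the 8 members above background (blue), Thoc5 (red) and all genes read in both comparisons (grey squares of 0.1 log2 units, darker with more genes). Dotted lines mark 2-fold, and genes beyond the axes are not drawn. H19 and Mest lie beside Thoc5 at the lower left, and the other 6 members lie inside the 2-fold lines.

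The targeted gene itself checks the labels. Thoc5 had signals of 4808 and 3047 in control cells and 545.6 and 455.1 in THOC5-depleted cells, a log2 difference of -2.83 unstimulated and -2.43 stimulated. Of the other 5 THO subunits on the list, Thoc1 was also lower by over 2-fold (log2 -1.29 and -1.06), and Thoc2, Thoc3, Thoc6 and Thoc7 ranged from -0.45 to 0.21. The profile over the serum ratio on each array and the unstimulated difference was compared among 17241 genes above background in all 4 channels. The nearest to H19 by Euclidean distance were Wdr5b (0.34 log2 units), Mest (0.44), Cdhr1 (0.55), Mageh1 (0.61) and Thoc5 (0.71). For Mest, which was added to this comparison after its values were seen, the nearest were Thoc5 (0.40), H19 (0.44), Cdhr1 (0.54), Wdr5b (0.61) and Abca1 (0.62). H19 and Mest were thus each the second nearest gene to the other. These 3 values come from 2 arrays and are among those known when the members were chosen. Nothing is therefore read from this order, and a short distance says nothing of shared function. Igf2 was not eligible, as it was not above background.

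Igf2 was read by a single probe (chr7:149839661-149839720, mm9) at signals of 5.379 and 3.681 in control cells and 2.374 and 5.561 in THOC5-depleted cells. None was well above background, so these signals have no order and no ratio is given. Peg3, a paternally expressed zinc finger protein, was likewise below this level on both of its probes, with signals from 2.624 to 4.966. For the ligand gene Igf2 the arrays therefore give no comparison with H19, its neighbor on chromosome 7.

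Cdkn1c, expressed from the maternal copy, was the member with the next lower level in unstimulated THOC5-depleted cells. On its probe (chr7:150644753-150644812, mm9) the signals were 3056 unstimulated and 2519 with serum in control cells, and 1518 and 1320 in THOC5-depleted cells. Both signals of the control array exceeded those of the other array, by 1.62-fold unstimulated (log2 -0.70) and 1.54-fold stimulated (log2 -0.62) after scaling, both short of 2-fold. Without scaling the log2 differences were -1.01, past 2-fold, and -0.93. At 1.5-fold, 3 members (H19, Mest and Cdkn1c) were lower unstimulated, beside 7.56% of genes, and 0 were higher, beside 6.88%. With serum 4 were lower, these 3 and Plagl1, beside 7.25% of genes, and 0 were higher, beside 8.36%. With serum the Plagl1 call was lost with the mean over its probes (log2 -0.45), and that of Cdkn1c with normexp and loess (-0.58). The Cdkn1c serum log2 ratio was -0.28 in control and -0.20 in THOC5-depleted cells.

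Plagl1, expressed from the paternal copy, was read by 4 probes, and it was the member with the highest serum ratio in control cells. The brightest probe (chr10:12850832-12850891, mm9) had signals of 170.6 unstimulated and 321.9 with serum in control cells, and 124.5 and 161.7 in THOC5-depleted cells. The stimulated control signal was the highest of the 4 and stood apart from the rest. The serum log2 ratio was 0.92 in control and 0.38 in THOC5-depleted cells. A probe 448 bases downstream gave 1.03 and 0.40, with signals of 137.6, 281.5, 110.2 and 145.5 in the same order. The 2 probes that lie 2411 and 1981 bases upstream gave 0.21 and -0.05 in control cells, and 0.01 and 0.03 in THOC5-depleted cells. The serum ratio in control cells was therefore higher on the 2 downstream probes than on the 2 upstream ones. Between the arrays, the brightest probe differed by log2 -0.24 unstimulated and -0.77 stimulated (1.71-fold lower), and the dimmest by -0.13 and -0.05.

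Serum ratios of the members stayed within 2-fold on the brightest probe of each gene on both arrays. Of 8 members, 0 were higher by 2-fold or more in control cells, against 2.89% of 18814 genes, and 0 were lower, against 2.29%. In THOC5-depleted cells 0 were higher, against 1.22% of 18575 genes, and 0 were lower, against 0.63%. Mest was closest to this limit, with a serum log2 ratio of -0.93 in control cells (SD between spots 0.034, spots from -0.97 to -0.87). In THOC5-depleted cells its ratio was -0.48 (SD 0.045, from -0.54 to -0.42), so the spots of the arrays did not overlap. Beside this difference of 0.45, the log2 ratios of 10 spike-in probes, which read RNAs added in known amounts, were also higher in the THOC5-depleted hybridization, on average by 0.25 (0.15 to 0.31), and their part in it was not tested. The second Mest probe gave -0.69 and -0.23. The third, above background on the control array only, gave -1.10 there, 2.14-fold lower with serum. The member median was -0.07 in control and 0.07 in THOC5-depleted cells, beside -0.03 and -0.01 over all genes. H19 ranked 187 from the lowest of 18575 genes in THOC5-depleted cells and 794 of 18814 in control cells. At a threshold of 1.5-fold, Plagl1 was higher in control cells, where 6.9% of genes were, and H19 and Mest were lower, where 6.92% of genes were. In THOC5-depleted cells 1 member, H19, passed 1.5-fold as lower, beside 2.09% of genes, and 0 as higher, beside 3.83%. This H19 call was lost with the mean over its probes (log2 -0.24) and with normexp and loess (-0.50), and that in control cells with the mean over probes (-0.52). Both H19 means include a signal of the dim probe that was not above background. The Plagl1 call in control cells was also lost with the mean over probes (0.53).

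**Figure D2:**
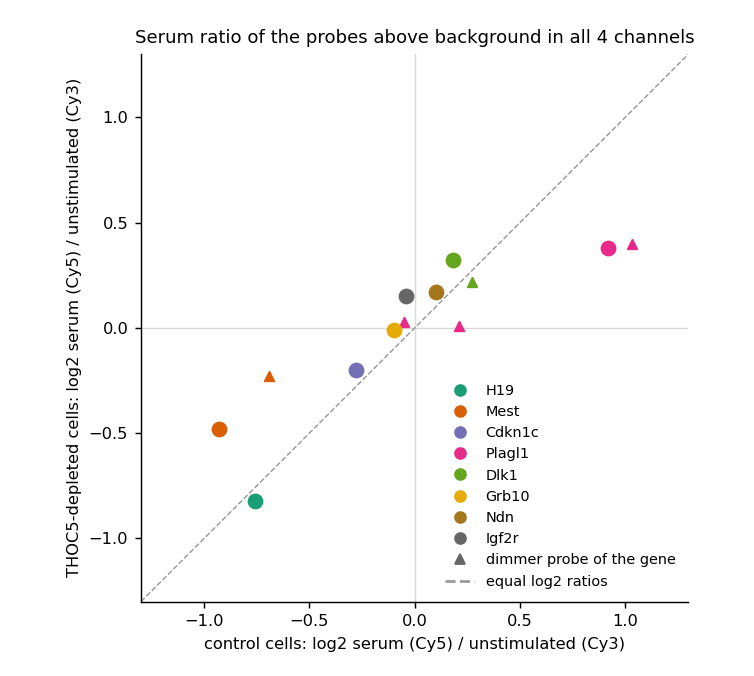
Log2 serum over unstimulated signal in control cells (horizontal) and THOC5-depleted cells (vertical) for each probe above background in all 4 channels; large circles are the brightest probe of a gene, triangles its dimmer probes, and the dashed line marks equal ratios. Mest and the 2 downstream Plagl1 probes lie nearer to 0 in THOC5-depleted than in control cells, and H19 lies on the line within 0.06.

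Dlk1, a transmembrane protein with EGF-like repeats made from the paternal copy, had signals on its brightest probe (chr12:110698721-110698781) of 2905 and 3286 in control cells and 2586 and 3228 in THOC5-depleted cells. After scaling it differed between the arrays by log2 0.15 unstimulated and 0.29 stimulated, and without scaling by -0.17 and -0.03. Its second probe, 219 bases upstream, gave 0.30 and 0.25. The serum log2 ratio was 0.18 in control and 0.32 in THOC5-depleted cells.

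Grb10, expressed from the maternal copy outside neurons, had signals on its probe (chr11:11833165-11833224) of 290.6 and 271.8 in control cells and 282.4 and 279.6 in THOC5-depleted cells, which are close to each other. The log2 difference was 0.19 unstimulated and 0.27 stimulated, and the unstimulated value turned to -0.04 without scaling. Ndn, which encodes the growth suppressor necdin, was dim on its probe (chr7:69493847-69493906), with signals of 33.68 and 36.14 in control cells and 29.01 and 32.59 in THOC5-depleted cells. Its differences between the arrays were -0.06 and 0.00, and their sign changed with the scaling.

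Igf2r, the receptor that clears IGF2, had a mean signal of 2271 unstimulated and 2204 with serum in control cells, and 1593 and 1765 in THOC5-depleted cells. The array gives its probe only an 11-base stretch of mm9, chr17:12875253-12875263. It was printed as 10 spots, of which 9 were used on the control array. The log2 difference between the arrays was -0.20 unstimulated and -0.01 stimulated. Its serum log2 ratio was -0.04 in control cells, with spots from -0.09 to -0.01 (SD 0.028). On the other array it was 0.15, with spots from 0.12 to 0.19 (SD 0.020). The spots of the 2 arrays do not overlap, but the difference, 0.19, lies within the range of the spike-in probes given above.

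**Figure D3:**
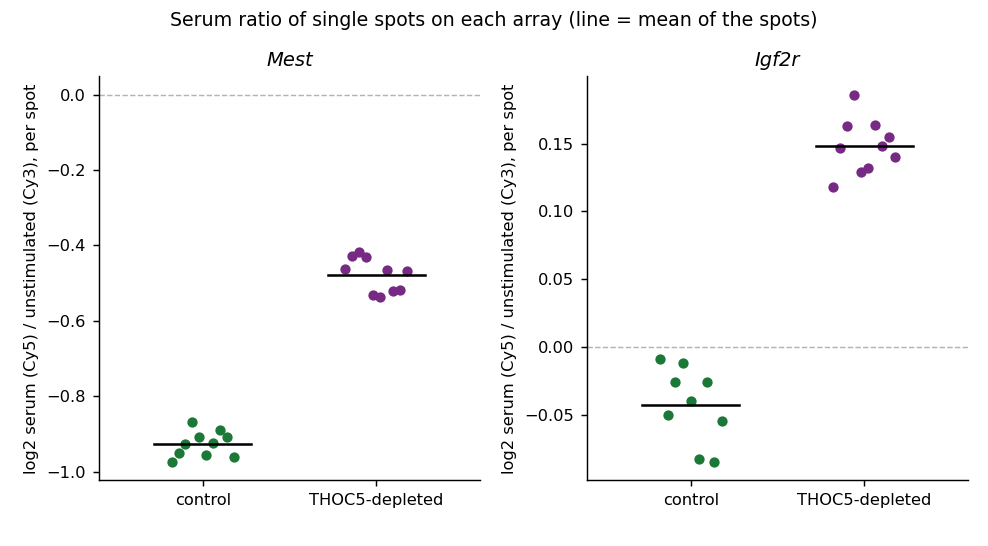
Serum log2 ratio of single spots of the brightest Mest and Igf2r probes on the control (green) and THOC5-depleted (purple) arrays, with the mean as a line; the vertical scales of the panels differ. The spots of each gene form separate ranges on the 2 arrays, at -0.93 and -0.48 for Mest and at -0.04 and 0.15 for Igf2r.

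The members were set beside other genes of their imprinted clusters. Of a list of 56 other imprinted genes, 54 were on the array and 35 were above background in all 4 channels. Where both channels were above background, 4 of 38 were lower by 2-fold or more unstimulated, beside 1.44% of all such genes, and 1 was higher, beside 1.38%. With serum 3 of 35 were lower, beside 1.68%, and 1 was higher, beside 1.66%. The list was drawn up with earlier results of these data known, so nothing is read from these counts. The median log2 difference of the listed genes was -0.08 unstimulated and -0.07 stimulated over the 41 and 37 genes above background in at least 1 channel. Of these, Peg12 and Nap1l5 have only bounds under 2-fold, given below. For serum, 0 of 36 genes above background in both channels passed 2-fold in control cells, beside 2.37% of all such genes higher and 1.52% lower. In THOC5-depleted cells 0 of 36 did, beside 0.862% higher and 0.258% lower. Nothing is read from counts of 0 at these shares.

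In the cluster of Dlk1, Meg3, a maternally expressed long non-coding RNA, had signals of 1561 and 1457 in control cells and 552.6 and 579.8 in THOC5-depleted cells, with log2 differences of -1.20 and -1.03. Mirg, a host transcript of miRNAs in the same cluster, had differences of -0.82 and -0.98. The paternally expressed Dio3, which encodes a deiodinase of thyroid hormone, was above background in unstimulated cells only, at -0.49. Next to H19, the insulin gene Ins2 had differences of 0.12 and -0.09. Beside Mest, Copg2, which encodes a coat protein of vesicles, had 0.03 and 0.02, while Klf14 was not above background. H19 and Mest thus had lower values than Ins2 and Copg2, each the only other listed gene measured in the cluster. Igf2 could not be compared.

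Around Cdkn1c, 8 measured genes of the Kcnq1 cluster ranged from -0.19 to 0.60 unstimulated and from -0.65 to 0.82 stimulated, and none passed 2-fold. The lowest with serum was Phlda2, a maternally expressed restrainer of placental growth, at -0.65, and the highest was the transporter gene Slc22a18 at 0.82. Beside Grb10, Ddc, which encodes an enzyme of dopamine and serotonin synthesis, was dim and higher, with signals of 40.64 and 39.41 in control cells and 61.79 and 85.01 in THOC5-depleted cells (log2 0.75 and 1.26). In the cluster of Ndn, Snrpn (0.62 and 0.37), Magel2 (-0.01 and 0.19), Ube3a (0.30 and 0.10) and Atp10a (0.20 and -0.51) stayed within 2-fold. Peg12 was above background in unstimulated control cells only and was at least 1.48-fold lower there in THOC5-depleted cells. Airn, a paternal non-coding RNA that runs antisense through Igf2r, differed by 0.48 unstimulated and -0.32 stimulated, and its serum log2 ratio was 0.91 in control and 0.11 in THOC5-depleted cells.

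**Figure D4:**
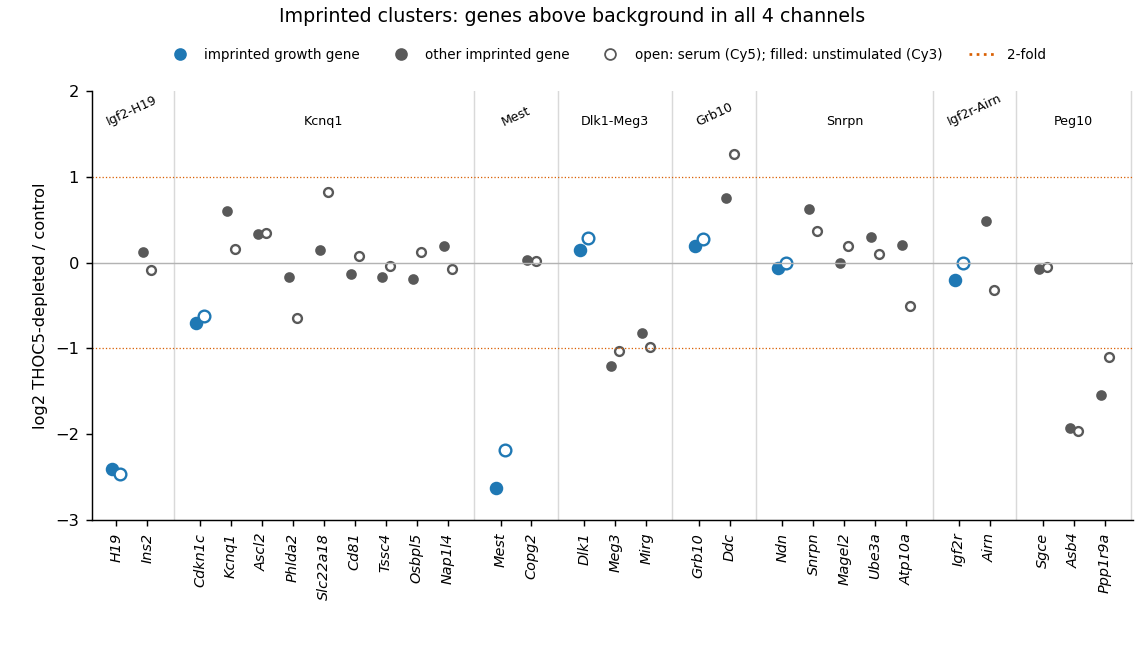
Log2 THOC5-depleted over control signal of the genes above background in all 4 channels, by imprinted cluster, in unstimulated cells (filled) and after serum (open); blue marks the imprinted growth genes and dotted lines 2-fold. H19, Mest, Meg3, Asb4 and Ppp1r9a lie below the lower dotted line in both channels, and Ddc lies above the upper line with serum.

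Outside the members' clusters, Asb4, whose product binds ubiquitin ligase components, had signals of 61.21 and 61.32 in control cells and 14.39 and 14.08 in THOC5-depleted cells (log2 -1.93 and -1.96). Ppp1r9a, of the same Peg10 cluster, had differences of -1.54 and -1.10, while its neighbor Sgce was at -0.08 and -0.05. Slc38a4, an amino acid transporter gene, had -1.13 and -0.92. Nap1l5 was above background on the control array only and was at least 1.47-fold lower unstimulated and at least 1.31-fold lower with serum. Inpp5f was higher unstimulated (log2 1.15), from a signal of 14.47 in control cells to 28.89 in THOC5-depleted ones.

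Among 30 genes of the IGF pathway, all were on the array and 25 were above background in all 4 channels. Of the 26 with both unstimulated channels above background, 0 differed by 2-fold or more in either direction, beside 1.38% of all such genes higher and 1.44% lower. Igfbp5, an IGF binding protein, was above background in unstimulated THOC5-depleted cells only and was at least 1.62-fold higher there. With serum 1 of 25 was lower, beside 1.68% of all such genes, and nothing is read from a single gene. This was Igfbp3, the main IGF carrier of serum, which had a signal of 50.64 in control cells and of 18.76 in THOC5-depleted ones (log2 -1.28). The pathway's median log2 difference was 0.02 unstimulated and 0.03 stimulated. For serum, 0 of 25 in control and 0 of 26 in THOC5-depleted cells passed 2-fold, beside the same shares of all genes as above. Of 18 genes that set or keep imprints, 16 were measured. Dnmt3a, a de novo DNA methyltransferase, was the single one past 2-fold, unstimulated, where 1.44% of all genes above background in both channels were lower. It had signals of 1360 and 1217 in control cells and 413.5 and 504.8 in THOC5-depleted cells. Its log2 difference was -1.44 unstimulated and -0.99 stimulated. The 16 genes had a median of 0.05 unstimulated and 0.04 stimulated.

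Promoters of 300 bases were found in RefSeq for 8 of the members, 14 promoters in all. The letters GGGGCCCC, which the product of Plagl1 is known to bind and which read the same on both strands, occurred in 1 of them, that of Peg3, and in 1.08% of all 32851 promoters. A match in these letters is a description and not a binding site.

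The cells were checked against markers. Of 12 fibroblast markers, 11 were above background in all 4 channels, and their summed signal was 496400 and 452000 in control cells and 404700 and 361300 in THOC5-depleted cells. Their median log2 difference was -0.34 unstimulated and -0.33 stimulated. The lowest in unstimulated cells were Col3a1 (-1.13 and -0.74), Pdgfra (-1.27 and -0.39), Dcn (-0.97 and -0.87) and Lum, which was at least 3.01-fold and 1.95-fold lower. The other 8 ranged from -0.42 to 0.25 unstimulated and from -0.47 to 0.38 stimulated, with Thy1 highest (0.25 and 0.38) and Vim at 0.02 and 0.01. In bulk RNA, fewer cells of a type and less RNA per cell cannot be told apart, and the part of these markers in the values of H19 and Mest was not tested. For other cell types, 4 of 6 epithelial markers (Cdh1 not above background in any channel), 3 of 5 endothelial (Tek and Emcn), 3 of 7 haematopoietic (Lyz2 and Hbb-bt), 2 of 5 muscle (Myog), 3 of 5 neural (Sox2 and Gfap), 1 of 4 germ and stem cell (Dppa3), 1 of 4 trophoblast (Cdx2, Elf5 and Tpbpa) and 2 of 4 adipocyte markers (Adipoq and Plin1) were above background in all 4 channels. Over the genes of each list above background in at least 1 channel, the median log2 difference between the arrays, unstimulated and then with serum, was 0.04 and -0.18 for epithelial, 0.03 and -0.05 for endothelial, 0.57 and 0.41 for haematopoietic, 0.58 and 0.50 for muscle, -0.13 and -0.56 for neural, 0.17 and -0.53 for germ and stem cell, 0.24 and -0.11 for trophoblast and 0.18 and 0.42 for adipocyte markers. These medians rest on 5 epithelial, 5 haematopoietic, 3 endothelial, 3 muscle, 3 neural, 2 adipocyte and 1 trophoblast gene. For germ and stem cell markers they rest on 3 genes unstimulated and 2 with serum. Some of these genes, such as Des and Ddx4, had only 1 channel above background, so their differences are not exact. Members of a list differed among themselves. Epcam was at least 2.66-fold and 2.45-fold lower, while the keratins Krt8, Krt18, Krt5 and Krt14 ranged from -0.08 to 0.30 unstimulated and from -0.91 to 0.22 with serum. Cdh5 was at -0.83 and -1.12, beside Pecam1 at 0.03 and -0.05 and Kdr at 0.12 and -0.05. Cd68 was at least 2.35-fold and 2.06-fold higher and Ptprc at least 1.44-fold and 1.15-fold higher, both dim. The bright Itgam was at 0.57 and 0.41, Cd3e at -0.04 and -0.25 and Hba-a1 at -0.12 and -0.12. Ddx4 was at least 2.70-fold and 1.72-fold lower, while Nanog was at 0.17 and 0.10 and Pou5f1 was at least 1.49-fold higher unstimulated. Summed signals are unscaled, and the THOC5-depleted array was dimmer, with a 75th percentile of 861.8 against 1063 in Cy3. In control and then THOC5-depleted cells, each unstimulated first, the sums were 238.4, 273.8, 201 and 176.6 for epithelial markers and 1016, 1139, 892.4 and 889.8 for endothelial ones. For haematopoietic markers they were 6610, 8517, 7751 and 8978, for muscle 3209, 3717, 4044 and 4206, and for neural 12620, 12610, 9501 and 8283. Itgam alone gave 6314, 8178, 7481 and 8700 of the haematopoietic sum, and Acta1 3157, 3646, 3994 and 4133 of the muscle sum. Kdr gave 902, 1015, 804.9 and 805 of the endothelial sum. Nes (6919, 8556, 5375 and 4657) and Tubb3 (5548, 3898, 4036 and 3534) gave most of the neural sum. These sums thus follow few genes and do not describe a list as a whole. For germ and stem cell markers the sums were 166, 177.7, 146.2 and 158.9, for trophoblast 129.3, 156.8, 133.3 and 127.2, and for adipocyte 409.8, 356.5, 405.6 and 396.5. The part of these markers in the results was not tested either.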

How the data were processed

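Per the file headers, the authors deposited scanner output (Agilent Feature Extraction 10.7.3.1, probe positions on mm9). In the deposited files the authors' processed signal is an intensity from which background was subtracted and whose dyes were normalized by the software, with no scaling between the arrays. A table of the whole series that the authors deposited holds a score, the size of the log10 ratio without its sign (0 negative values, medians 0.0279 and 0.0222), so its direction is not known from the table. It served as an alternative with the scanner's sign, its size equalling the scanner's ratio to within 0.001 for 85.1% and 86.4% of features. The columns matched to no sample number 0. Each array had 43020 spots other than controls. From 62.1% to 64.4% of these were well above background and 0 were saturated. The number of arrays limits the precision.

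Spots marked as outliers (239 and 234) were dropped, and a probe's remaining spots averaged as log2 values. A gene was read by its brightest probe over the 4 channels, and 26412 of 35777 probes with a symbol were named through their accession. The Cy3 and Cy5 levels of the arrays were compared after Aquantile in limma 3.58.1, which was tested on simulated data. R 4.3.3, Python 3.11.15, pandas 2.3.3 and matplotlib 3.10.9 were used. Where a single channel of a pair was above background, the fold is a bound, set against the lowest signal above background (or the dim probe's own, if higher). With 1 array per condition, differences past 2-fold were counted without a test or replicate check.

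Named were all members and their probes, listed imprinted, IGF pathway and imprinting genes past 2-fold, cluster neighbors, the THO subunits, and the 5 nearest profiles. Members and lists were chosen with earlier results of these data known. Alternatives were normexp with an offset of 50 and loess, no dye normalization, signals raised to 50, outlier spots kept, the mean over probes, a filter on all 4 channels, a 1.5-fold threshold, the table of the series, and 4 other scalings. Exons and UTRs were not analysed here.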

Additional observations from a re-analysis of the deposited data

Results flagged for a closer look

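Igf2r had serum log2 ratios of opposite sign on the arrays, -0.04 in control and 0.15 in THOC5-depleted cells. The difference was not tested, as there was 1 array per condition, and with normexp and loess the control value was 0.01. The 10 spike-in probes were higher by 0.25 on average in the THOC5-depleted hybridization.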

How the results depend on the processing

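The lower levels of H19 and Mest in THOC5-depleted cells kept their direction under all 10 alternatives, from -2.59 to -1.18 (H19) and -2.89 to -2.47 (Mest) unstimulated, and from -2.65 to -0.90 and -2.44 to -1.98 with serum. For H19 the alternatives reread the same spot of its brighter probe on each array. Only the mean over probes added the dim second probe, and none read that probe alone. With the mean over probes, H19 was at -1.18 and -0.90, and the count of members past 2-fold with serum was 1 in place of 2. Without scaling between the arrays, Cdkn1c reached -1.01 and 3 members were lower unstimulated. With the mean over probes and with normexp and loess, the serum ratio of H19 in THOC5-depleted cells was -0.24 and -0.50 in place of -0.82. The mean over probes put Plagl1 at 0.53 for serum in control cells and at -0.45 with serum between the arrays, and normexp and loess put Cdkn1c there at -0.58, each short of 1.5-fold. At 1.5-fold the counts were 3 for serum in control cells, 1 for serum in THOC5-depleted cells, 3 for unstimulated and 4 for stimulated THOC5-depleted over control cells. No value past 2-fold changed sign. Among the smaller ones, Dlk1, Grb10, Ndn and Igf2r changed sign or came to 0 under at least 1 alternative. No paired analysis was possible because each group holds 1 array, and no replicate could be left out. Signals near background, as for Igf2, Peg3 and the second H19 probe, limit what can be read.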
